A study of Mus musculus with 8 samples.

Results

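Olfactory sensory neurons lacking Mex3a were compared at a late and an early stage of their life, by ribosome footprints and by RNA. The Mex3a protein binds RNA through KH domains and carries a RING finger. Cells had been sorted by a green fluorescent reporter from the main olfactory epithelium of mice. The early cells were Ngn1-GFP positive, from a transgene that marks immediate neuronal progenitors and immature sensory neurons, in Mex3a fl/fl mice that carried a Cre recombinase allele. The late cells were positive for the OMP-ires-GFP knock-in, which marks mature sensory neurons, in mice of the same Mex3a and Cre genotype. Both groups therefore share the floxed alleles and the Cre recombinase, and the knock-in reporter sits in the Omp gene. The genotype tag of the late group reads OMP-ires-Cre where its description reads OMP-ires-GFP. Control cells of both gates came from Mex3a flox/flox or flox/+ mice without Cre, and the sources used here do not give ages. The study has 8 footprint libraries, 2 for each of its 4 groups, and the deposited table holds 1 column per group and assay. Each value is thus the authors' value for a group, there is no spread between replicates, and no difference here has a replicate check or a p-value.

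Of 22553 genes in the table, 11766 had at least 20 footprints in the pair of Mex3a-deleted columns, 15058 had at least 20 RNA counts, and 11717 passed in both assays. These are the genes described. The immature column held 3031489 footprints and 27786809 RNA counts, and the mature column held 4100841 and 26946592. Ratios are log2 of mature (OMP-GFP) over immature (Ngn1-GFP) counts, each scaled within its assay, so that a positive value is higher in mature cells. Brackets give the 95% interval from counting error only, and PCR copies without molecular identifiers are not independent molecules. A gene is called 2-fold higher or lower where it differed by at least 2-fold and its interval excluded equality. Where a column held 0 counts the fold was computed against 3 counts and is given as at least that fold. It is not the bound of the counting interval, which ends somewhat nearer to equality. Footprints per RNA, or translational efficiency, is the footprint ratio minus the RNA ratio on the log2 scale.

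An olfactory sensory neuron is born from a dividing progenitor that expresses the proneural factor Ngn1 (gene symbol Neurog1). It then passes through an immature stage of axon growth and choice of a single odorant receptor, and matures into a ciliated cell that expresses Omp and the odorant signalling cascade. In that cascade a receptor activates the G protein Golf, adenylyl cyclase makes cyclic AMP, and a cyclic nucleotide-gated channel and a calcium-activated chloride channel carry the current. Ribosome footprints are the pieces of mRNA that ribosomes protect from nuclease, so their number reflects both how much mRNA there is and how densely ribosomes sit on it.

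Across the transcriptome, 1325 genes (11.3%) had 2-fold higher footprints in mature cells and 2162 (18.4%) had 2-fold lower footprints. In RNA, 719 genes (4.77%) were higher and 2472 (16.4%) lower. Efficiency was 2-fold higher for 1146 genes (9.78%) and 2-fold lower for 1542 (13.2%). The median ratio was -0.01 for footprints, -0.01 for RNA and -0.05 for efficiency. With scaling to library size alone, the footprint median moved to -0.23 and the counts to 923 higher and 2637 lower. Of all footprints 50% fell in 568 genes in mature and 835 in immature cells. These shares differed with depth, and what set them was not tested. Among genes with a mean of 10 to 30 footprints per column 53.1% were called, against 8.76% of genes with 1000 or more, and single-gene differences at low counts carry little weight without replicates.

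The deleted gene was below its control in both columns and assays, and lower in mature than in immature cells. Mex3a (GRCm38 chromosome 3, 88531946 to 88541394) had 28 footprints in immature and 5 in mature cells, a ratio of -2.70 [-4.42, -1.30]. Its RNA counts were 656 and 38, a ratio of -3.95. In the control columns it had 437 and 16 footprints, and the deleted columns were 10.1-fold (immature) and 3.48-fold (mature) below them. In RNA they were 4.75-fold and 8.51-fold below. Counts are sums over the coding sequence and do not show whether the remaining reads lie in the deleted part. Among its paralogs, which are RNA-binding proteins of the same family, Mex3b had 92 footprints in immature cells and 0 in mature cells, at least 35.5-fold lower, and its RNA went from 2449 to 483 counts (-2.18). Mex3c, with 212 footprints in each column, had a scaled ratio of -0.21 [-0.49, 0.07], and Mex3d one of -1.12 [-2.09, -0.20].

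Markers of other cells in the epithelium were read before the neuronal genes, since a sort can carry them along. In bulk columns fewer cells of a type and less RNA per cell cannot be told apart. Most non-neuronal lists were lower in the mature column. Of 16 vessel and mesenchyme markers, 12 of 15 measured were 2-fold lower (18.4% of all genes were) and 2 were higher. Their summed footprints were 2931 scaled CPM (counts relative to the scaled library total) in immature and 276.6 in mature cells. Col1a1, the main fibrillar collagen chain, went from 3751 to 282 footprints (-3.94 [-4.12, -3.77]). Horizontal basal cell markers, those of the resting stem cell, summed to 204.5 and 13.8 CPM, with 9 of 12 at 0 footprints in the mature column. Krt5, the keratin of these cells, went from 206 to 3 footprints (-6.31 [-8.60, -4.74]). Trp63, their master regulator, went from 140 to 0, at least 54.0-fold lower. Ensheathing glia markers summed to 276.2 and 30.8 CPM with all 6 measured members lower, among them Sox10 at 33 and 0 footprints, at least 12.7-fold lower. The markers of microvillar cells, ionocytes and tuft cells summed to 489.8 and 146.0 CPM with 6 of 8 lower.

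Sustentacular cells, the glia-like supporting cells, and the secretory glands behaved differently from those lists. The 22 sustentacular markers summed to 1297 CPM of footprints in immature and 1025 in mature cells, and to 493.9 and 575.1 CPM of RNA. Of 19 measured, 6 were 2-fold lower (18.4% of all genes were) and 0 higher, with a median of -0.49. Cyp2g1, an olfactory cytochrome P450, went from 468 to 867 footprints (0.68 [0.52, 0.84]) and from 950 to 2830 RNA counts. In the control pair the same list summed to 8331 and 353.4 CPM, a median of -4.83, so the immature control column carried by far the most sustentacular signal. Gland and secretory genes were mixed, with 6 of 20 higher and 9 lower, beside 11.3% and 18.4% of all genes. The odorant-binding protein Obp1a went from 88 to 807 footprints (2.99 [2.67, 3.32]) and the mucin Muc5b from 636 to 34 (-4.44 [-4.98, -3.94]). Haemoglobin genes were higher in the mature column, and the 5 erythroid genes summed to 55.0 and 128.1 CPM. Immune markers were near the detection limit, at 44.7 and 52.4 CPM summed over 18 genes. No vomeronasal receptor of 325 reached 20 footprints. The part of these cells in the differences below was not tested.

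**Figure D1:**
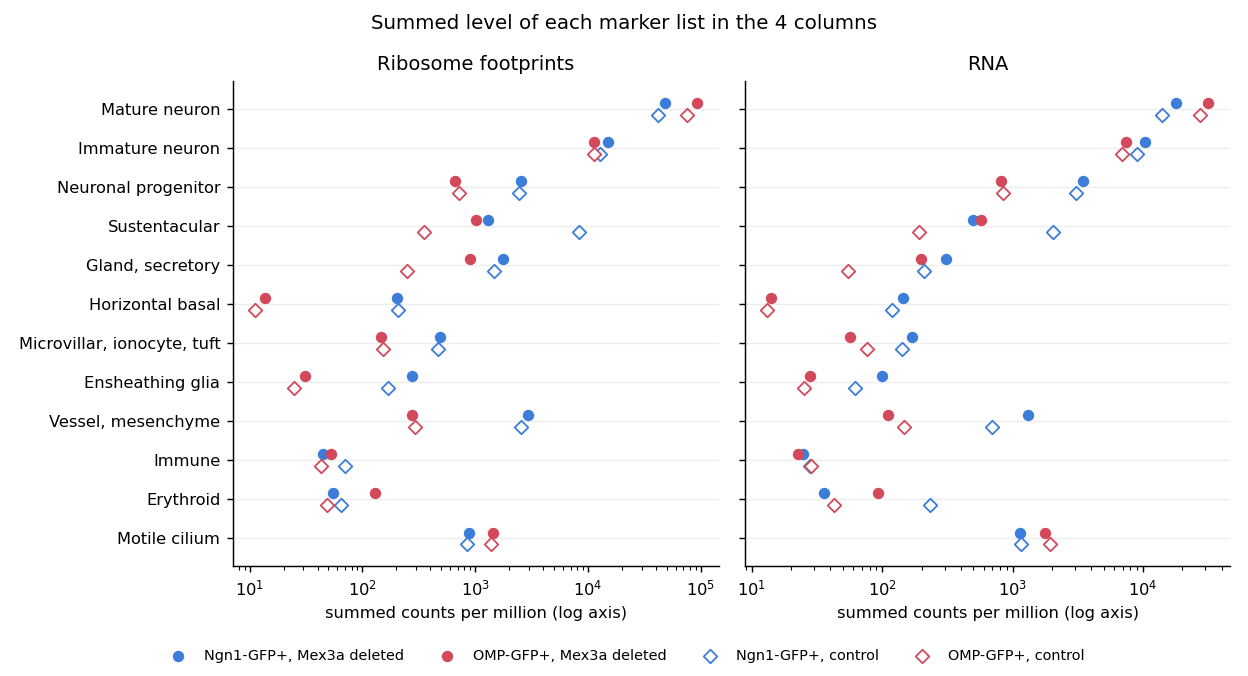
Summed footprints (left) and RNA (right) of each marker list, in scaled CPM on a log axis; filled circles are the 2 columns with Mex3a deleted, open diamonds the 2 control columns, blue immature and red mature, with 1 value per group and no error. Basal cell, glial and mesenchymal lists lie lower in mature cells in both pairs, while sustentacular markers differ far more in the control pair, whose immature column holds 8331 CPM of footprints.

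Genes that define mature sensory neurons were higher in mature cells as a group, although moderately. Of 22 listed genes 21 were measured in footprints, all 21 had a ratio above 0, 9 were 2-fold higher (11.3% of all genes were) and 0 lower, with a median of 0.85. In RNA 9 of 22 were 2-fold higher, with a median of 0.97, and the efficiency median was -0.08. Omp itself (chromosome 7, 98143359 to 98145447), the cytoplasmic marker of maturity, had 8806 footprints in immature and 14732 in mature cells, a ratio of 0.53 [0.49, 0.57]. Its RNA counts were 27327 and 36609 (0.58). As the mature cells were sorted by a reporter knocked into Omp, the direction of this member follows from the gate. The immature column thus held mature transcripts at an appreciable level, with Omp at 2754 CPM of footprints against 3983 in the mature column.

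The largest footprint ratio of the list belonged to Nsg1 (chromosome 5, 38137193 to 38159743), a neuronal endosomal protein. It had 10293 footprints in immature and 43860 in mature cells, a 3.68-fold difference (1.88 [1.85, 1.91]), beside an RNA ratio of 0.89. Its efficiency ratio was 1.00 [0.95, 1.04], against 0.44 in the control pair. Kirrel2, an adhesion molecule that sorts olfactory axons in an activity-dependent way, went from 1845 to 6026 footprints (1.50 [1.42, 1.57]) with RNA close behind (1.36). S100a5, a calcium-binding protein of active sensory neurons, went from 4630 to 12630 (1.24 [1.19, 1.29]). Slc17a6, the vesicular glutamate transporter, had a ratio of 1.17 [1.06, 1.27] and the calcium sensor Scgn one of 1.33 [1.03, 1.64]. Gfy (chromosome 7, 45176349 to 45179597), whose product is the Golgi protein goofy, had the most footprints of any gene. Its 78399 footprints made up 2.59% of the immature column and its 158240 made up 3.86% of the mature one, a ratio of 0.80 [0.79, 0.82].

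The odorant signalling cascade was higher along most of its length. Of 21 genes 20 were measured in footprints, 6 were 2-fold higher (11.3% of all genes were), 2 lower (18.4%) and 17 above 0. The medians were 0.80 in footprints and 0.81 in RNA. Gnal, the alpha subunit of Golf, had 9980 footprints in immature and 25028 in mature cells (1.12 [1.08, 1.15]). Its partners lay lower, with the gamma subunit Gng13 at 0.67 [0.61, 0.73] and the beta subunit Gnb1 at 0.11 [0.06, 0.17]. The exchange factor Ric8b, which stabilises Golf, had a ratio of 0.93 [0.86, 0.99]. Adcy3, the adenylyl cyclase of olfactory cilia, went from 3837 to 7995 footprints (0.85 [0.79, 0.90]; RNA 1.08). The transduction channel is built from 3 subunits, and these differed in size. Cnga4 had a ratio of 1.12 [1.05, 1.18], Cngb1 of 0.78 [0.67, 0.90] and Cnga2, the principal subunit, of 0.70 [0.62, 0.78]. Ano2, the chloride channel, went from 1426 to 3450 footprints (1.06 [0.97, 1.15]).

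Termination of the signal was represented too. Pde1c, the calcium-dependent phosphodiesterase of the cilium, went from 1469 to 4821 footprints (1.50 [1.42, 1.59]), and Slc8a1, a sodium-calcium exchanger, had a ratio of 1.09 [0.97, 1.21]. The members that were lower were Rgs2, a regulator of G protein signalling that went from 205 to 41 footprints (-2.53 [-3.05, -2.04]), and Pde2a, the phosphodiesterase of a separate cyclic GMP class of sensory neurons, which went from 42 to 18.

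**Figure D2:**
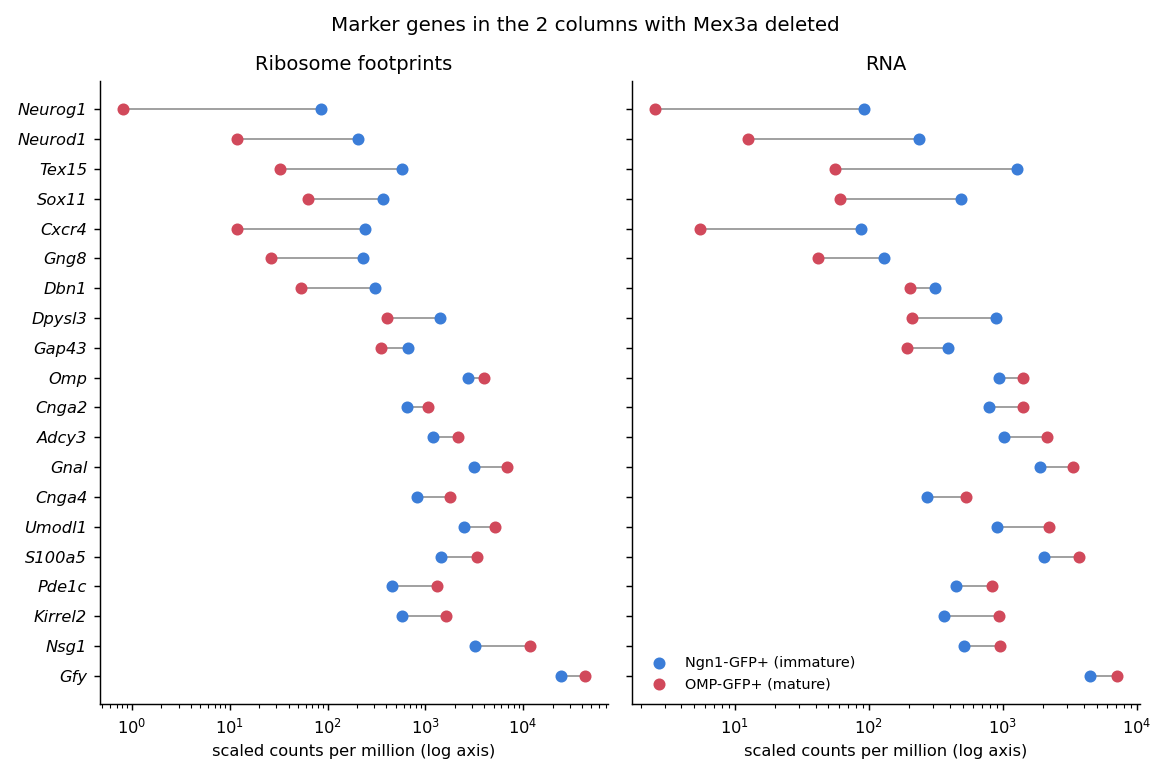
Scaled CPM of 20 marker genes on a log axis, footprints at left and RNA at right, with blue for the immature and red for the mature column of Mex3a-deleted cells and 1 value per point. The genes were picked from the lists, and Neurog1 and Omp are tied to the sorting reporters. Among those picked, progenitor and immature genes from Neurog1 to Gap43 lie lower in mature cells and genes from Omp to Gfy higher, with larger differences among the first. Immature neuron genes near level, such as Tubb3, Dcx and Ncam1, are not drawn. Of that list 3 of 24 lay above 0 in footprints and 6 of 25 in RNA.

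Promoters of signalling and maturity genes were scanned because Olf/Ebf (O/E) factors, early B-cell factors named for their discovery in this tissue, are known to bind sequences of the form CCCNNGGG. The window was the 250 bases before the RefSeq start site in GRCm38.p6, read on both strands. A gene was counted if any of its windows held the letters. CCCNNGGG was present for 3629 of all 27025 genes with a window (13.4%), and for 17.6% of the 11594 with 20 or more counts in either assay. Of 36 genes of the maturity and signalling lists 25 had a window, and 9 of these (36.0%) held the letters. The letters were found for 12.1% of genes with 2-fold higher RNA and 22.0% of those with 2-fold lower RNA, and for 6 of 17 progenitor genes (35.3%). The share was therefore not particular to genes higher in mature cells. The stretches below, from 5 genes whose footprint ratios lie between 0.67 and 1.06, show the match in capitals. A match is a description of letters rather than of a bound site.
Cnga2 (X, 71991757 to 71991816, plus strand, -92 to -33 from the start): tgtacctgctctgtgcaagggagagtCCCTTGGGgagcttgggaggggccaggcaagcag
Gfy (chromosome 7, 45179605 to 45179664, minus strand, -67 to -8): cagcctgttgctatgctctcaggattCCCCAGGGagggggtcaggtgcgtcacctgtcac
Ano2 (chromosome 6, 125711095 to 125711154, plus strand, -93 to -34): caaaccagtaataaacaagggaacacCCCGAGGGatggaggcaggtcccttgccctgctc
Gng13 (chromosome 17, 25717051 to 25717111, plus strand, -121 to -61, with 2 overlapping matches): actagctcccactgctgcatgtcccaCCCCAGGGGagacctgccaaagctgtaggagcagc
Umodl1 (chromosome 17, 30954501 to 30954560, plus strand, -182 to -123): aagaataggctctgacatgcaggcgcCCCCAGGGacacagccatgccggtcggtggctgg
Umodl1, a protein related to uromodulin, had a footprint ratio of 1.04 [1.00, 1.08] and an RNA ratio of 1.27.

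Genes for bringing receptors to the surface did not share the direction of the cascade. Of 17 listed, 15 were measured, 0 were 2-fold higher and 1 lower, and the footprint median of 0.02 changed sign under scaling to library size (-0.21), as did the RNA median of 0.07 (-0.05). The receptor-transporting proteins Rtp1 and Rtp2 had ratios of 0.23 [0.17, 0.30] and 0.80 [0.71, 0.88]. Reep1, of the receptor expression-enhancing family, had one of 0.78 [0.50, 1.07], and its relative Reep5 went from 133 to 36 footprints (-2.10 [-2.67, -1.55]). The unfolded protein response, which receptor expression triggers during receptor choice, was near level, with 0 of 25 higher, 2 lower and a median of 0.02 (-0.21 under library size). Over all genes 11.3% were higher and 18.4% lower in footprints. In RNA 1 of 17 receptor transport genes was higher and 2 lower, the lowest at -4.70. For the unfolded protein response 0 of 27 were higher and 3 lower in RNA, beside 4.77% and 16.4% of all genes. The chaperone Hspa5 had a footprint ratio of 0.43 [0.38, 0.48] and an RNA ratio of -0.14.

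Odorant receptors, of which each neuron expresses 1, were higher in sum. Over 1103 receptor genes the footprints were 27282 in immature and 38769 in mature cells, or 0.900% and 0.945% of the columns, a scaled ratio of 0.30 [0.27, 0.32]. The RNA sum had a ratio of 0.43 [0.42, 0.44]. Of 701 receptors measured in footprints 200 (28.5%) were 2-fold higher and 117 (16.7%) lower, with a median of 0.32, and of 1019 measured in RNA 206 were higher and 67 lower. Over all genes 11.3% were higher and 18.4% lower in footprints and 4.77% and 16.4% in RNA, so the share lower in footprints is near that of any gene. These shares are not matched for depth, and receptors have low counts. Of all genes with a mean of 10 to 30 footprints and at least 1 in each column, 411 of 2138 were higher and 725 lower. Receptor efficiency was higher for 123 of 698 (17.6%) and lower for 170 (24.4%), beside 9.78% and 13.2% of all genes. Its median was -0.15, against 0.20 in the control pair. At least 1 footprint was seen for 898 receptors in immature and 892 in mature cells. Class II receptors, the tetrapod class, had a summed ratio of 0.36 [0.34, 0.39], while class I, the class also found in fish, had -0.01 [-0.07, 0.05]. Unscaled shares of all footprints differed less, as the 0.900% and 0.945% above show. Both assays called 56 receptors higher and 12 lower together, and across 698 receptors the Pearson r of footprint and RNA ratios was 0.302, a description over genes that share their columns and have low counts.

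Single receptors varied widely. Olfr1348 had 226 footprints in immature and 326 in mature cells (0.32 [0.07, 0.57]). Olfr1288 went from 88 to 459 (2.17 [1.84, 2.52]) while its RNA counts were 71 and 70. In the other direction Olfr578 went from 283 to 189 (-0.79 [-1.07, -0.52]) and Olfr1122 from 170 to 53 (-1.89 [-2.37, -1.44]). Because a receptor is read in few cells, the number of cells of each type caught in a sort bears on such values and was not measured. Trace amine-associated receptors, a small separate family that detects volatile amines, were mostly higher. Of 10 measured in footprints 5 were 2-fold higher, 1 lower and 9 above 0, and of 12 measured in RNA 7 were higher and 0 lower. Over all genes 11.3% were higher and 18.4% lower in footprints, and 4.77% and 16.4% in RNA. The family is small, and across its 10 members measured in both assays footprint and RNA ratios had a Pearson r of -0.51. Their summed footprints went from 265 to 971, a ratio of 1.66 [1.47, 1.86], against 0.99 [0.81, 1.17] in the control pair. Taar6 alone had 72 and 466 footprints (2.48 [2.12, 2.86]) beside an RNA ratio of 0.77.

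Genes of the immature neuron were mostly lower in mature cells, some of them steeply. Of 25 listed 24 were measured in footprints, 12 had footprints lower by 2-fold or more (18.4% of all genes did) and 0 higher. The medians were -1.06 in footprints and -1.02 in RNA. In RNA 13 of 25 were 2-fold lower and 1 was higher, beside 16.4% and 4.77% of all genes. Ratios lay above 0 for 3 of 24 in footprints and 6 of 25 in RNA, the highest RNA ratio being 2.91. Cxcr4 (chromosome 1, 128588199 to 128592299), a chemokine receptor of newly formed neurons, went from 780 to 44 footprints, a 20.5-fold difference (-4.36 [-4.83, -3.92]), with RNA at -3.98. Gng8, a G protein gamma subunit of immature sensory neurons, had 739 and 97 footprints (-3.14 [-3.46, -2.83]), and its RNA ratio of -1.63 was smaller in size. Dbn1 (chromosome 13, 55473428 to 55488126), the actin-binding protein drebrin of growing neurites, went from 985 to 200 footprints (-2.51 [-2.74, -2.29]) beside an RNA ratio of only -0.63. The RNA-binding protein Elavl4 had 1069 and 267 footprints (-2.21 [-2.41, -2.02]; RNA -1.42).

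Not every marker of immaturity differed so much. Gap43, the growth cone protein used as the standard marker, went from 2129 to 1292 footprints (-0.93 [-1.03, -0.83]), and Dpysl3, a collapsin response mediator, from 4497 to 1511 (-1.78 [-1.87, -1.70]). The neuronal tubulin Tubb3 (-0.27 [-0.33, -0.21]) and doublecortin, Dcx (-0.22 [-0.34, -0.11]), were close to level, and the surface protein Ncam1 was at 0.04 [0.01, 0.08]. Marcks, a membrane-bound regulator of actin, had an RNA ratio of -1.52 and a footprint ratio of -0.51, so that its efficiency ratio was 1.02 [0.88, 1.15].

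Neurogenic progenitor genes had the lowest median of the neuronal lists. Of 25 listed 19 were measured in footprints, 16 were 2-fold lower (18.4% of all genes were) and 0 above 0. The footprint median was -2.57 and the RNA median -2.95. Neurog1 (chromosome 13, 56250478 to 56252180), the gene whose regulatory sequence drives the Ngn1-GFP reporter, went from 272 to 3 footprints (-6.71 [-9.00, -5.15]) and from 2693 to 66 RNA counts (-5.19). As the sort used that reporter, its direction follows from the gate. Neurod1, a proneural factor downstream of it, had 651 and 44 footprints (-4.10 [-4.57, -3.66]). Tex15, known from germ cells, had 1857 and 120 (-4.16 [-4.44, -3.90]), and Sox11, a transcription factor of new neurons, 1183 and 231 (-2.57 [-2.78, -2.36]). Smaller differences were those of Sox4 (-0.35 [-0.76, 0.06]), which was not called, and of Btg2 (-1.15 [-1.46, -0.85]) and Insm1 (-1.21 [-1.35, -1.06]). The list also holds Mex3a itself, whose values are given above. Mfng, a modifier of Notch, had 96 footprints in immature and 0 in mature cells, at least 37.0-fold lower. The horizontal basal cell, glial and mesenchymal sums given above lay lower in the same direction, and their part in these values was not tested.

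Cell division genes were also lower. Of 46 listed 41 were measured in footprints, 30 had 2-fold lower footprints (18.4% of all genes did) and 0 had higher, the median being -1.87. In RNA 37 of 46 were lower and 0 higher, with a median of -1.76. Their summed footprints were 1589 CPM in immature and 649.4 in mature cells. Top2a, the topoisomerase of mitotic chromosomes, had 586 and 107 footprints (-2.66 [-2.98, -2.36]). Kif11, the spindle motor, had 94 and 12 (-3.18 [-4.18, -2.31]), Mcm6, of the replicative helicase, 121 and 16, and the mitotic cyclin Ccnb2 54 and 0, at least 20.8-fold lower. Smc2, a condensin subunit, stood apart with 185 and 160 footprints (-0.42 [-0.73, -0.11]) beside an RNA ratio of -1.83.

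Promoters of this list carry the CCAAT box, the known binding sequence of the factor NF-Y. The letters CCAAT, on either strand and thus also as ATTGG, were searched in the 250 bases before the start. They were found for 10133 of 27025 genes with a window (37.5%) and for 39.9% of those with 20 or more counts in either assay. Of the 46 cell division genes 38 had a window, and 33 of these (86.8%) held the letters, as did 13 of 17 progenitor genes (76.5%). Among all genes with 2-fold lower RNA the share was 41.3%, and among those with higher RNA 36.3%. Stretches of 4 promoters are shown because several boxes follow each other at short distances in each, marked in capitals.
Top2a (chromosome 11, 99024229 to 99024352, minus strand, -163 to -40, with 4 of 6 matches): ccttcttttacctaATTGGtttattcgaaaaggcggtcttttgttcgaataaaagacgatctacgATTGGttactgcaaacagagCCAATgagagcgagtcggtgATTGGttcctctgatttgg
Ccnb2 (chromosome 9, 70421557 to 70421655, minus strand, -101 to -3, with 3 of 3): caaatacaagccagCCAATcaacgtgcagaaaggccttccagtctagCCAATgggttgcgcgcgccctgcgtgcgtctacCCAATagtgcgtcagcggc
Cdk1 (chromosome 10, 69352942 to 69353006, minus strand, -94 to -30, with 2 of 3): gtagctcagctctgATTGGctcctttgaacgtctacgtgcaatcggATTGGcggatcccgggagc
Ccnb1 (chromosome 13, 100786535 to 100786599, minus strand, -113 to -49, with 2 of 2): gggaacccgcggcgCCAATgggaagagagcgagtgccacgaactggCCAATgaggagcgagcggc
Cdk1, the mitotic kinase, had 318 and 14 RNA counts (-4.34 [-5.23, -3.58]) and Ccnb1, its cyclin, 195 and 35 (-2.32 [-2.88, -1.79]).

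**Figure D3:**
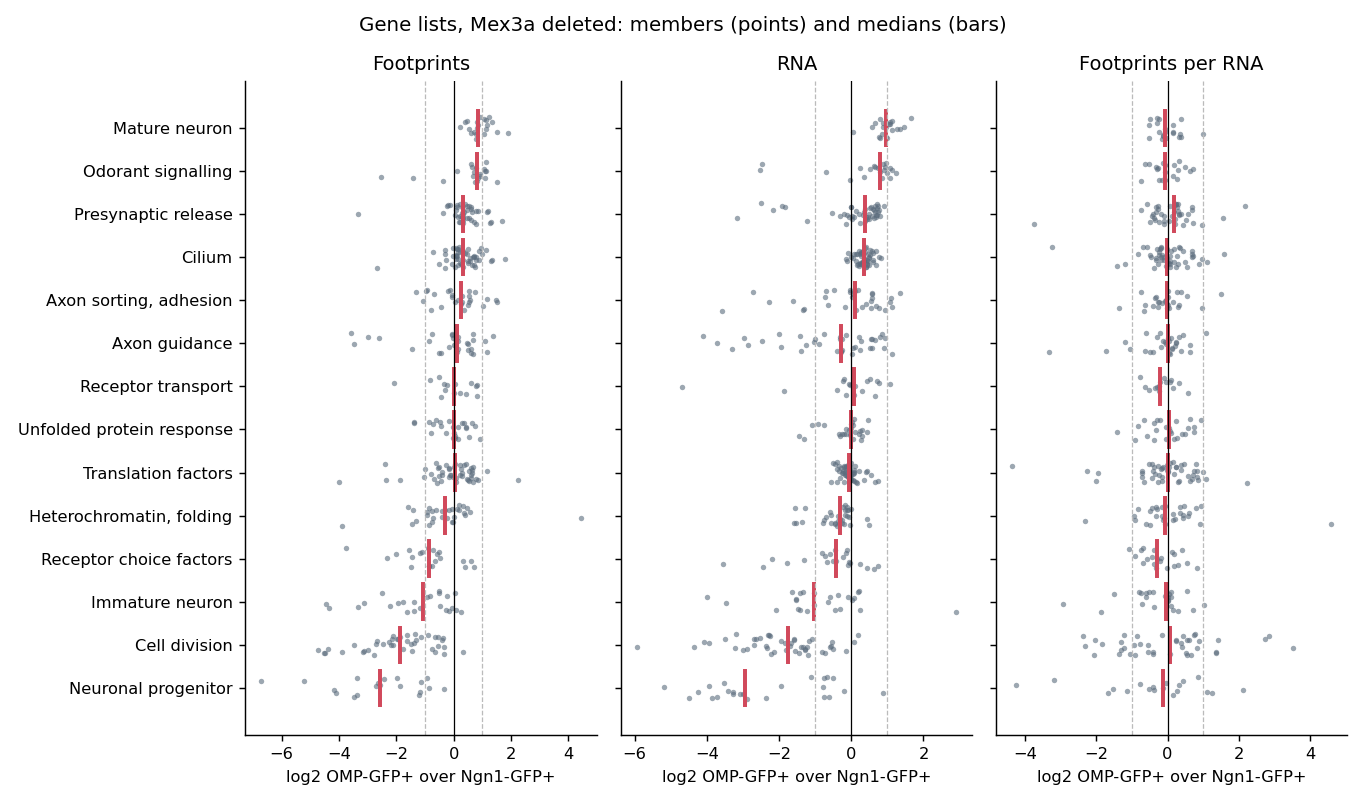
Log2 ratios of mature over immature cells with Mex3a deleted, for the measured members (points) of 14 gene lists, with the median of each list as a red bar; panels show footprints, RNA and footprints per RNA, dashed lines mark 2-fold, and points are spread vertically at random within a list. Footprint medians run from 0.85 for mature neuron genes to -2.57 for progenitor genes, the RNA medians follow them, and efficiency medians lie between -0.29 and 0.17.

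Factors that act in receptor choice were lower in mature cells, more so in footprints than in RNA. Of 21 measured in footprints 8 were lower by at least 2-fold and 0 were higher, and the median was -0.86. In RNA 5 of 22 were lower and 0 higher, with a median of -0.43. Over all genes 18.4% were lower in footprints and 16.4% in RNA, so the RNA count is near the share of any gene. Lhx2 (chromosome 2, 38339271 to 38369737), the LIM-homeodomain factor bound at receptor enhancers, went from 1116 to 442 footprints (-1.55 [-1.71, -1.39]) and from 20823 to 13578 RNA counts (-0.46). Its efficiency ratio was -1.09 [-1.25, -0.93], beside -1.47 in the control pair. Ldb1, the adaptor that joins these enhancers, had a footprint ratio of -1.09 [-1.29, -0.90] and an RNA ratio of -0.41, and Ebf1, an O/E factor, -0.64 and -0.07. Atf5, whose translation is controlled by receptor-induced stress signalling, had 5869 and 4848 footprints (-0.49 [-0.54, -0.43]) while its RNA was at 0.43, an efficiency ratio of -0.91 [-0.97, -0.86] beside -0.98 in the control pair. Dlx5 and Dlx6, homeodomain factors, were lower in both assays, with footprint ratios of -2.31 and -2.01.

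Heterochromatin and genome folding genes, which silence the receptors not chosen, had 1 of 31 higher and 5 lower in footprints, a lower share no larger than the 18.4% of all genes, with medians of -0.31 in both assays. The deacetylase Hdac2 went from 1525 to 577 footprints (-1.61 [-1.75, -1.47]) and Smchd1, a structural silencer, from 1341 to 578 (-1.42 [-1.57, -1.28]), each with RNA of a like ratio (-1.54 and -1.56). Hmgb2, a chromatin protein of dividing cells, had a footprint ratio of -1.47 [-1.70, -1.24]. The 1 member called higher, the methyltransferase Suv39h2, rested on 1 and 25 footprints (4.43 [1.82, 9.79]).

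Genes of the axon were read as a list of sorting and adhesion and a list of guidance. In the sorting and adhesion list 4 of 27 had 2-fold higher footprints and 2 lower, with a median of 0.26. Over all genes 11.3% were higher and 18.4% lower, so the higher share is near that of any gene. The RNA median of 0.11 turned to -0.01 under library size. Beside Kirrel2, the higher members were Dscam (1.49 [1.10, 1.90]), Epha5 (1.17 [0.99, 1.34]) and Pcdh10 (1.03 [0.85, 1.22]), all cell surface proteins. Dscaml1 had a ratio of -1.30 [-1.62, -0.99] and the cadherin Cdh4 one of -1.06 [-1.43, -0.69]. In the guidance list 3 of 30 were higher and 5 lower in footprints, and 1 of 39 higher and 13 lower in RNA. The footprint shares are near those of all genes (11.3% and 18.4%), and 16.4% of all genes were lower in RNA. Its footprint median of 0.10 was -0.13 under library size, and its RNA median of -0.28 was 0.39 over members with 200 or more counts. The receptors Ephb2 (77 and 8 footprints) and Plxnd1 (90 and 17) were lower, and Epha7 (1.07 [0.87, 1.28]) was higher. Clustered protocadherins, which give neurons a surface identity, were mostly level. Of 55 measured, 4 were higher and 2 lower, both under the shares of all genes, and the footprint median of 0.20 was -0.02 under library size.

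Genes of the cilium, where odour is sensed, differed little and mostly one way. Of 53 listed, 51 were measured in each assay. In footprints 4 were 2-fold higher and 1 lower, both under the 11.3% and 18.4% of all genes, with 41 above 0. In RNA 48 of 51 had a ratio above 0 but 0 were called either way. The medians were 0.31 and 0.35. Kif3a (chromosome 11, 53565701 to 53604248), a motor subunit of intraflagellar transport, had 1303 and 3273 footprints (1.12 [1.02, 1.21]) while its RNA was level (0.01 [-0.04, 0.05]). The same gene had a footprint ratio of 0.48 in the control pair. Cep83 and Cc2d2a, of the basal body and transition zone, had footprint ratios of 1.33 [0.95, 1.72] and 1.29 [0.97, 1.62]. Markers of respiratory ciliated cells, which also bear axonemes, summed to 884.5 CPM of footprints in immature and 1448 in mature cells, with 2 of 11 called higher and 0 lower, and their part in these values was not tested.

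Presynaptic genes were similar in size. Of 41 measured in footprints 5 were 2-fold higher, a share near the 11.3% of all genes, 1 lower and 36 above 0, with medians of 0.34 in footprints and 0.38 in RNA. Snap25, of the vesicle fusion machinery, went from 922 to 2456 footprints (1.20 [1.09, 1.31]). The vesicle proteins Syt4 and Sv2c had ratios of 1.31 [1.13, 1.49] and 1.26 [1.09, 1.43], and the vesicle protein Vamp1, with 29 and 107 footprints, one of 1.67. For Snap25, Syt4 and Sv2c the RNA ratios were smaller, between 0.48 and 0.68. Cacna1a, a presynaptic calcium channel subunit, was the exception, with 61 and 7 footprints and RNA counts of 687 and 817.

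Genes of translation itself and of mRNA control were examined because the deleted protein acts on RNA. Translation factors had 2 of 49 higher and 5 lower in footprints, both under the shares of all genes, and 0 of 52 called either way in RNA, and their footprint median of 0.04 was -0.19 under library size. The cap-binding protein Eif4e had 12 and 65 footprints (2.23 [1.33, 3.25]) with level RNA (-0.01), and Eif4ebp2, an inhibitor of that protein, had 100 and 22 (-2.40 [-3.13, -1.72]) with RNA at -0.14. Eif1b, a start-site factor, went from 235 to 611 footprints (1.17 [0.95, 1.39]; RNA 0.17). In the control pair these footprint ratios were -0.56, -1.29 and 0.06.

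Genes of mRNA silencing and decay had 3 of 42 higher and 9 lower in footprints, and 0 higher and 3 lower in RNA, with medians of -0.15 and -0.16. Over all genes the shares were 11.3% and 18.4% in footprints and 4.77% and 16.4% in RNA, so the footprint counts are near the background. Tnrc6b, the scaffold of microRNA silencing, went from 488 to 1272 footprints (1.17 [1.02, 1.32]) with RNA at 0.19. The Argonautes differed among themselves: Ago2 had 160 and 82 footprints (-1.18 [-1.58, -0.78]), Ago3 25 and 89 (1.62 [0.97, 2.32]) and Ago4 13 and 70 (2.22 [1.35, 3.20]), with RNA ratios of 0.24, -0.05 and 0.28. Zfp36, which targets AU-rich mRNAs for decay, went from 136 to 6 footprints (-4.71 [-6.18, -3.55]; RNA -2.07). Neuronal RNA-binding proteins had 1 of 26 higher and 3 lower.

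Most housekeeping groups lay closer to 0. Nuclear genes of oxidative phosphorylation had RNA ratios above 0 for 71 of 72 members with a median of 0.41, and a footprint median of 0.22 that was -0.01 under library size. Their efficiency ratio was above 0 for only 15 of 67, with a median of -0.20, against 0.17 in the control pair. Proteasome subunits were level, with a footprint median of 0.05 (-0.18 under library size), and cholesterol synthesis genes had 0 of 25 higher and 2 lower. Ribosomal proteins had 7 of 39 higher and 10 lower in footprints, beside 11.3% and 18.4% of all genes, with 44 of 83 too low to measure. Their efficiency median of 0.13 was -0.32 among members with at least 100 counts in the pair. The mitochondrial gene mt-Nd5, a subunit of complex I, had 3183 and 1547 footprints (-1.25 [-1.34, -1.16]) with level RNA (0.06). Histones were lower, with 43 of 61 measured called lower in footprints (18.4% of all genes were) and 0 higher. Tubulins were mixed: Tubb5 went from 7793 to 3001 footprints (-1.59 [-1.65, -1.53]) and Tuba4a from 313 to 769 (1.09 [0.90, 1.28]).

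Immediate early genes, which neuronal activity and tissue dissociation can induce, were lower for 5 of 13 measured and higher for 1, with a footprint median of -0.45. Over all genes 18.4% were lower and 11.3% higher in footprints. Egr1 had 380 and 140 footprints (-1.65 [-1.94, -1.37]) but level RNA (-0.05), and Fos had 540 and 272 (-1.20 [-1.42, -0.99]) with RNA at -0.48. Junb was lower in both assays, with ratios of -1.48 and -1.18. In the control pair the footprint ratios of Egr1 and Fos were -0.07 and -0.11.

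Footprint and RNA ratios were compared gene by gene to see how far maturation showed in RNA. Across 11717 genes Pearson r was 0.608 and Spearman rho 0.458, descriptions over genes that share 4 columns. Of genes with 2-fold higher footprints 939 of 1313 had RNA on the same side of 0, but only 173 (13.2%) were also 2-fold higher in RNA. Of genes with 2-fold lower footprints 1670 of 2142 had RNA on the same side and 927 (43.3%) were also 2-fold lower. To limit counting error, 3073 genes with 200 or more counts in each of the 4 columns were examined. There 120 genes had 2-fold higher and 61 lower footprints, 45 higher and 39 lower RNA, and 32 higher and 33 lower efficiency. Efficiency lay within 1.5-fold of level for 2538 of them (82.6%), and r was 0.603. Genes low in 1 column, such as Neurog1 (272 and 3 footprints) and Cxcr4 (780 and 44), are left out by this filter, and large ratios with them. With at least 100 counts in the pair instead, 448 of 7927 genes had 2-fold higher and 581 had 2-fold lower efficiency.

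**Figure D4:**
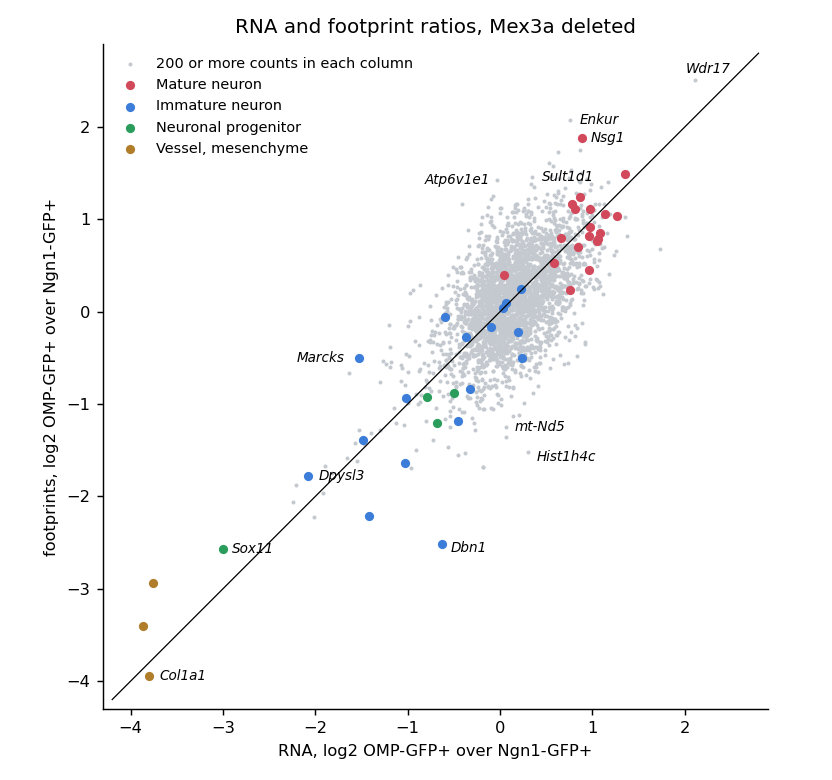
Footprint ratio against RNA ratio, both log2 of mature over immature cells with Mex3a deleted, for 3073 genes with 200 or more counts in each column (grey) and members of 4 lists among them (coloured); the diagonal marks equal ratios. Most genes lie near the diagonal, Enkur, Nsg1, Sult1d1 and Atp6v1e1 lie above it, and Dbn1, Hist1h4c and mt-Nd5 lie below.

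Among these well-counted genes, the largest footprint ratio was that of Wdr17, with 274 and 1811 footprints (2.51 [2.33, 2.70]) and RNA at 2.11. Next came Enkur (chromosome 2, 21180731 to 21205365), the ciliary protein enkurin, with 994 and 4841 footprints (2.07 [1.98, 2.17]) and RNA at 0.76. Mns1 (1.73 [1.52, 1.94]) and Ttll6 (1.54 [1.35, 1.72]) also belong to cilia, as an axonemal protein and a tubulin glutamylase, and respiratory ciliated markers summed higher in the same column. Others were Mpc2 of the mitochondrial pyruvate carrier (1.75 [1.53, 1.98]), the kinase Pak3 (1.61 [1.44, 1.79]), the antioxidant factor Nfe2l2 (1.47 [1.36, 1.58]) and the calcium-binding protein Gca (1.45 [1.24, 1.67]). Sult1d1 (chromosome 5, 87554650 to 87569006), a cytosolic sulfotransferase, went from 8155 to 25948 footprints (1.46 [1.42, 1.50]) with RNA at only 0.35.

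The lower end of the well-counted genes held both neuronal and other transcripts. After the collagens Col1a1 and Col1a2 (-3.40 [-3.61, -3.21]) and the matrix protein Sparc (-2.94 [-3.16, -2.73]) came Sox11, Dbn1, the membrane skeleton protein Epb41, with 1115 and 276 footprints and RNA at -2.02, and Elavl4. The secreted airway protein Bpifa1 had 1425 and 394 footprints, and the pteridine reductase Qdpr 824 and 245. Vim, the intermediate filament of mesenchyme and progenitors, went from 2702 to 851 (-1.88 [-1.99, -1.76]). As Col1a1, Col1a2 and Sparc belong to the mesenchyme list, which summed lower in mature cells, they are not read as neuronal.

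Footprints per RNA differed by 2-fold for few well-counted genes. The largest was that of Nvl, an ATPase of ribosome assembly, with 292 and 761 footprints, RNA at -0.41 and an efficiency ratio of 1.58 [1.36, 1.80]. Atp6v1e1 (chromosome 6, 120795244 to 120822698), a subunit of the proton pump of vesicles, went from 903 to 2817 footprints while its RNA went from 4484 to 3907 counts, an efficiency ratio of 1.47 [1.34, 1.59]. In the control pair its efficiency ratio was -0.04. Ankrd12 (1.34 [1.18, 1.50]), Enkur (1.31 [1.19, 1.43]) and Ccdc34 (1.31 [1.15, 1.47]) followed, with 1.03, 0.25 and 0.17 in the control pair. Serbp1, a ribosome-associated mRNA-binding protein, had 2001 and 4789 footprints with RNA at -0.14 (1.19 [1.11, 1.27]). For Apex1, a DNA repair enzyme, and the chromatin remodellers Chd7 and Smarca5 the ratio above 1 came from lower RNA, at -0.98, -0.94 and -0.86, beside footprint ratios of 0.21, 0.24 and 0.29.

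At the other end Dbn1 had an efficiency ratio of -1.88 [-2.10, -1.65], with -1.07 in the control pair. The histone gene Hist1h4c followed with -1.82 [-2.03, -1.61], against 0.33 in the control pair. Atn1, the corepressor atrophin, had -1.50 [-1.69, -1.31], although the table gives the same counts to an overlapping predicted gene. Spcs2 of the signal peptidase had -1.33 [-1.57, -1.08], and mt-Nd5 -1.31 [-1.40, -1.23]. The lysosomal enzyme Smpd1, at -1.31 [-1.59, -1.03], had -1.55 in the control pair. Adipor1, a receptor for adiponectin, had 442 and 402 footprints while its RNA went from 14359 to 24223 counts, an efficiency ratio of -1.26 [-1.46, -1.07]. Dvl3, a component of Wnt signalling, had -1.25 [-1.48, -1.01] and the mitochondrial carrier Ucp2 -1.27 [-1.51, -1.03]. Coding length bore little relation to the ratio, with r of 0.114 across these 3073 genes.

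**Figure D5:**
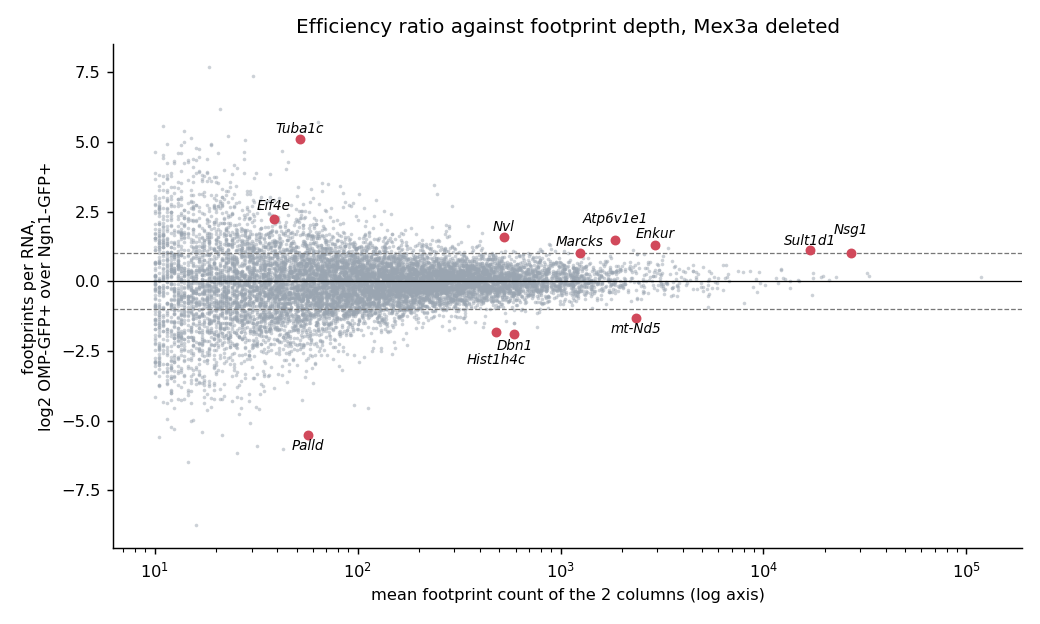
Efficiency ratio (log2 footprints per RNA, mature over immature cells with Mex3a deleted) against the mean footprint count of the 2 columns on a log axis, for genes with at least 20 counts in the pair of each assay; red points are named genes and dashed lines mark 2-fold. The scatter narrows with depth, so Tuba1c, Palld and Eif4e lie among many wide ratios while Nsg1, Sult1d1 and mt-Nd5 lie apart from genes of their depth.

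The most extreme ratios were found at low counts. Tuba1c had 1 footprint in immature and 103 in mature cells (6.48 [3.97, 11.79]), and Fzd6, a Wnt receptor, 1 and 60 (5.70 [3.16, 11.02]) while its RNA went from 106 to 30 counts. Rfxap, a regulator of antigen presentation genes, had 2 and 83 footprints (5.17 [3.27, 8.23]) beside RNA counts of 724 and 913. Lower in mature cells were Col6a1, a collagen, with 224 and 1 footprints (-8.02 [-13.33, -5.53]), and Palld, an actin-associated protein, with 113 and 1 (-7.03 [-12.35, -4.52]). Such values rest on 1 or 2 footprints in one column, and the deposited columns hold no further library to set beside them. In RNA the gland gene Bpifb9b, with 36 and 762 counts (4.57 [4.08, 5.09]), and Nefl, the light neurofilament, with 64 and 275 (2.27 [1.87, 2.68]), were among the 5 largest of genes with a mean of 5 CPM or more. The lowest of these was Col17a1, a hemidesmosome collagen of basal cells, with 331 and 2 counts (-7.21 [-10.26, -5.34]).

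Levels between genes can be set against each other only per length of coding sequence, by the authors' deposited RPKM of footprints. In mature cells Gfy had 25470.1 RPKM, Nsg1 19167 and S100a5 10921.5. In immature cells Tmsb4x, the actin-sequestering thymosin, stood first with 18009.7 RPKM and Gfy next with 17070.3, while Nsg1 had 6085. Tmsb4x was lower in mature cells, with 8517 and 7569 footprints (-0.38 [-0.43, -0.34]).

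The same maturation in control mice was set beside that without Mex3a, as a separate pair of columns. In controls 757 of 12387 genes (6.11%) had 2-fold higher and 2160 (17.4%) 2-fold lower footprints. In RNA 3.43% of control genes were higher and 24.1% lower, and in efficiency 5.98% and 8.54%. Across genes measured in both pairs the ratios had an r of 0.556 for footprints (11399 genes), 0.629 for RNA (14972) and 0.165 for efficiency (11384). For efficiency r was 0.349 over the 2950 genes with 200 or more counts in each column. In footprints 1031 genes were lower in both pairs, 51.7% of those in the deleted and 62.4% of those in the control pair, and 234 were higher in both, 19.0% and 34.7%. Efficiency was higher in both pairs for 123 genes, 11.6% and 20.4%. The difference between the pairs was not tested, since neither has replicates. The control immature column differs in its sustentacular signal and also in the depth and make-up of its RNA. It held 89327877 RNA counts, against 27786809 in the deleted immature column. Mitochondrial genes made up 4.79% of its RNA counts against 2.40%, histones 1.50% against 0.68%, and ribosomal proteins 1.94% against 1.19%. The efficiency median of histones was 1.33 in the control pair and -0.26 in the deleted pair.

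List medians were set side by side over the members measured in each pair. Footprint medians without Mex3a and in controls were 0.85 and 0.96 for mature neuron genes, 0.80 and 0.73 for odorant signalling, -1.06 and -0.93 for immature neurons, -2.57 and -2.72 for progenitors and -1.87 and -1.65 for cell division. Those of cilium genes were 0.31 and 0.47, and of presynaptic genes 0.34 and 0.40. Summed odorant receptors had ratios of 0.30 in footprints and 0.43 in RNA without Mex3a against 0.42 and 0.13 in controls.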

How the data were processed

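Ribosome profiling and matched RNA-seq had been made from reporter-positive cells sorted after papain dissociation, with libraries from a stranded total RNA kit, per the labels' protocols. FastQC, cutadapt, STAR and the mm10 build are named per the submitters' processing notes, with no versions. The deposited table holds 24 value columns, 1 per group and quantity, so it does not show the 2 libraries of a group or how the authors combined them. Its counts are footprint or RNA reads over coding sequence, as deposited by the authors. RPKM of footprints, TPM of RNA and the translational efficiency ratio were re-derived from these counts and the coding length to rounding, so they are the authors' rescaling of the same counts, as deposited.

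Footprint and RNA counts were each scaled over the 4 group columns by TMM (edgeR 4.0.16 in R 4.3.3) after a filter on low counts (13479 and 16388 genes). Ratios, exact conditional binomial 95% intervals and calls used scipy 1.17.1, pandas 2.3.3 and numpy 2.4.6 under Python 3.11.15, and matplotlib 3.10.9 drew the plots. The interval of an efficiency ratio is approximate, from the 4 counts. The calculation was tested on simulated data. A test across libraries had been planned, and a description replaced it since each group has 1 column. Size factors came from DESeq2 1.42.0 in one alternative. The other alternatives were library size alone, TMM from the deleted columns, TMM without receptor, mitochondrial and ribosomal protein genes, other count minimums, and the deposited efficiency.

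Genes were named by rule: the 8 largest footprint ratios in each direction and the 5 largest RNA ratios (mean of 5 CPM or more), the 8 largest efficiency ratios (100 counts in the pair of each assay), the 10 genes with most footprints per kilobase in each column, up to 4 members of a list by their interval, and Mex3a. Further members of lists, the 12 largest ratios in each direction with 200 or more counts, and the 12 motifs searched were chosen after values were seen. The members and all gene lists were chosen with earlier results of these data known. The 86 rows that share a symbol were not named, and 30 genes have counts identical to those of another gene. Of the symbols, 21322 (94.5%) were found in the RefSeq table, which gave locations and promoters in GRCm38.p6, the build also called mm10. Some genes are not reported here.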

Additional observations from a re-analysis of the deposited data

Results flagged for a closer look

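Measured in both pairs were 11399 genes in footprints, 14972 in RNA and 11384 in efficiency. In efficiency 123 of these were higher in both pairs and 260 lower in both. Called 2-fold higher in mature cells without Mex3a and 2-fold lower in mature cells of controls were 74 genes in footprints, 109 in RNA and 98 in efficiency, and 42, 18 and 111 genes went the opposite way. In footprints or RNA, the named genes among them with 50 or more counts in each pair follow. With 1 column per group this difference was not tested. In RNA the secreted gland gene Bpifb9b had a ratio of 4.57 without Mex3a and -1.30 in controls. The haemoglobin genes Hba-a1 (1.58 and -2.06), Hbb-bs (1.26 and -2.31) and Hbb-bt (1.54 and -2.84) did the same, as did Tuba1c (1.37 and -9.15). In footprints Fzd6 had 5.70 without Mex3a, from 1 and 60 footprints, and -1.42 in controls. Bpifb9b belongs to the gland list and the haemoglobins to the erythroid list, whose sums also differed between columns. Tubulin genes, among them Tuba1c, made up 1.18% of RNA counts in the control immature column and 0.49% in the deleted immature column.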

How the results depend on the processing

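No paired analysis was possible because the table has 1 column per group and no library columns, and leaving out each replicate was not run for the same reason. Scaling by DESeq2 size factors, by the deleted columns or without receptor, mitochondrial and ribosomal protein genes changed no call among 393 on named genes, and library size alone ended 22 of them. Counts of called genes moved with the minimum count. With at least 50 counts in each column, higher and lower genes numbered 371 and 358 in footprints, 340 and 729 in RNA and 225 and 331 in efficiency, and in controls 325 and 243 in footprints, 1080 lower in RNA, and 149 and 177 in efficiency. With at least 100 counts in the pair they were 646 and 761, 442 and 1430, and 448 and 581, and in controls 374 and 853 in footprints and 222 and 489 in efficiency. With 200 in each column of both assays, a limit chosen after seeing the data, they were 120 and 61, 45 and 39, and 32 and 33. Library size alone gave 461 higher in control footprints. The deposited efficiency called 1012 genes higher and 1569 lower. No call among these changed direction. Depth limits single genes: 3 footprints correspond to 0.938 CPM in immature and 0.811 CPM in mature cells, and the median measured gene had 91 and 98 footprints. Counting intervals leave out the spread between animals and libraries, which the columns do not show.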
